A study of Mus musculus with 4 samples.

Results

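Cytochrome P450 genes were taken as all genes whose array name is Cyp followed by a digit, with the sterol demethylase gene Cyp51 left out. They numbered 81 of the 27376 named genes on the array, and they were read by 115 of its 41174 probes. The cells were CD8αβ+ intraepithelial lymphocytes (IELs) of the small intestine and CD8αβ+ splenocytes (SPLs), and each group had 2 samples. All mice were untreated wild-type males, 8 to 12 weeks old by the labels, with no transgene or deleted allele in either group, and the study's legends describe each sample as cells of several mice, gated as CD45+ CD3+ CD8β+ CD8α+ TCRβ+. Total RNA was read on 1-color Agilent arrays, 1 for each sample, and the comparison asks which of these genes differ between CD8 T cells resident in the gut epithelium and those of the spleen. Nothing in the labels says that the 2 samples of a group came from separate sorts, and p-values therefore measure only the spread between these samples.

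Cytochrome P450 enzymes are heme-containing monooxygenases that insert an oxygen atom into small lipophilic molecules. Those of the endoplasmic reticulum take electrons from the reductase Por, and those of mitochondria from the ferredoxin Fdx1. Families 1 to 4 oxidize drugs, plant compounds, fatty acids and eicosanoids, whereas the families with higher numbers make or clear bile acids, oxysterols, steroid hormones, vitamin D and retinoic acid. In the small intestine, enterocytes hold most of the drug-metabolizing P450 enzymes, under the control of nuclear receptors and of the aryl hydrocarbon receptor.

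The 4 arrays were not equally apart. Over the 27912 probes tested and measured on every array, IEL replicate 2 correlated with SPL replicate 1 at 0.992, whereas IEL replicates 1 and 2 correlated at 0.946. The 2 slides each held an array of either group (slide 1 that of IEL replicate 1 beside SPL replicate 2), so that each slide gives its own difference between IELs and SPLs. CD8 T cell markers were well above background on all arrays for 10 of 10 genes, with summed levels of 651, 709, 716 and 689 times the array's 75th percentile on IEL replicates 1 and 2 and SPL replicates 1 and 2. Markers of other cells were also present. The 8 general epithelial markers summed to 23.7, 3.89, 1.62 and 0.425 in the same order of arrays, and the 14 enterocyte markers to 4.50, 2.48, 1.39 and 0.787, with Mttp and Slc5a1 among the genes well above background on no array. Macrophage markers (9 genes) summed to 0.997, 10.5, 13.5 and 5.38, and neutrophil markers (7 genes) to 0.224, 35.8, 44.4 and 50.01. IEL replicate 1 thus had the highest epithelial and the lowest macrophage and neutrophil sums, whereas the dendritic cell sum was also highest there (9.56, 4.61, 3.37 and 1.84), and IEL replicate 2 had levels of blood cell markers near those of the spleen. In such bulk samples, fewer cells of a type and less RNA per cell cannot be told apart. The labels place IEL replicate 2 among the IELs and it was kept there, so that every IEL mean and every count over both IEL arrays below includes an array that lay nearer to SPL replicate 1 than to IEL replicate 1. Values or calls without it are given for the P450 genes whose call changed.

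**Figure D1:**
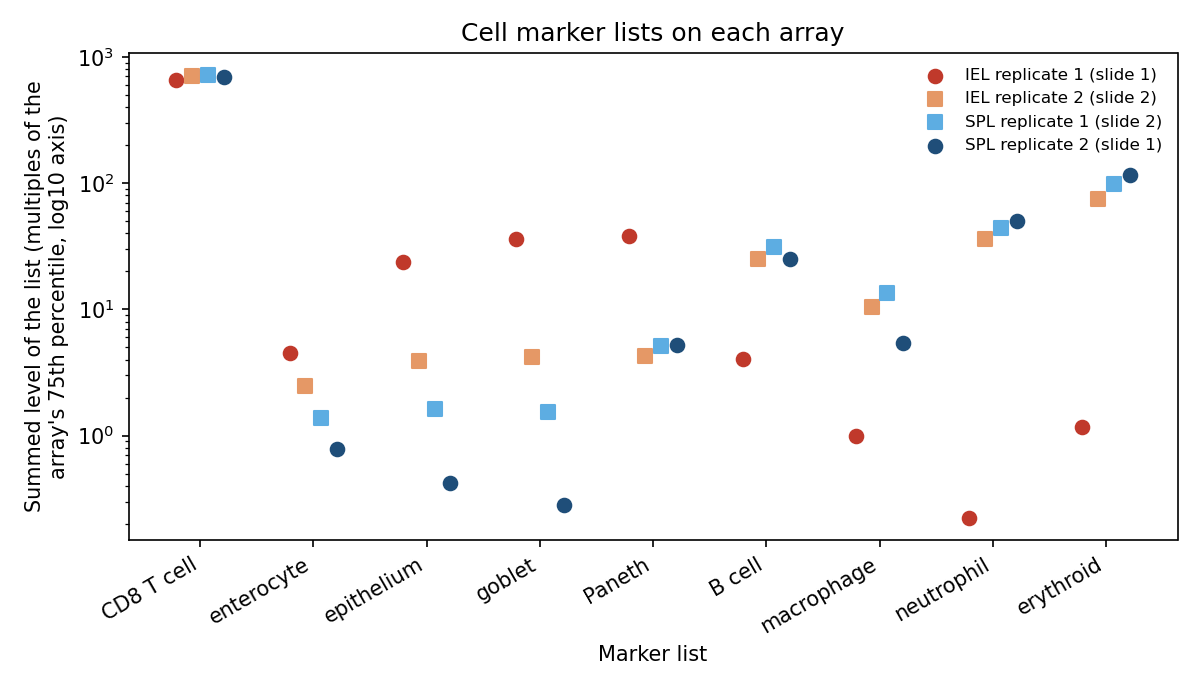
Summed level of each marker list (multiples of the array's 75th percentile, logarithmic axis) on the 4 arrays, with 1 point per array. CD8 T cell markers lie between 651 and 716 on all arrays, whereas the epithelial sum runs from 23.7 on IEL replicate 1 to 0.425 on SPL replicate 2, and the neutrophil sum is lowest, at 0.224, on IEL replicate 1.

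Fewer P450 probes than probes overall were well above background. Of the 115 probes, 43 (37.4%) were well above background on IEL replicate 1, 52 (45.2%) on IEL replicate 2, 50 (43.5%) on SPL replicate 1 and 52 (45.2%) on SPL replicate 2, where "well above background" is the mark the scanner software gives to a spot. By its less strict mark, positive and significant against the local background, the counts were 79, 77, 83 and 80. Over all probes on the array, the shares were 63.6%, 67.6%, 68.3% and 69.6% in the same order. By gene, 33 of the 81 had a probe well above background on all 4 arrays, 31 on no array, and the other 17 on some. The level of a probe depends on its own sequence, so that levels of different genes are not set against each other here. The median GC content was 45.0% among P450 probes well above background on all arrays and 40.0% among those on none. Among all probes the medians were 43.3% and 36.7%.

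Detection differed by family. The family 1 genes Cyp1a1, Cyp1a2 and Cyp1b1, which are the classic targets of the aryl hydrocarbon receptor, were well above background on no array, by any of 5 probes. In family 2, the largest with 40 genes, 18 were well above background on all arrays and 15 on none. Family 4, the fatty acid hydroxylases, had 8 of 16 on all arrays, whereas family 3, the main intestinal drug-metabolizing family, had 1 of 6. The single members of families 17, 20, 21 and 46 were well above background on all 4 arrays. By contrast, both family 11 genes (Cyp11a1 and Cyp11b2, of steroid hormone synthesis), Cyp19a1 (aromatase), Cyp24a1 (which inactivates vitamin D) and Cyp8b1 (of bile acid synthesis) were well above background on none.

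**Figure D2:**
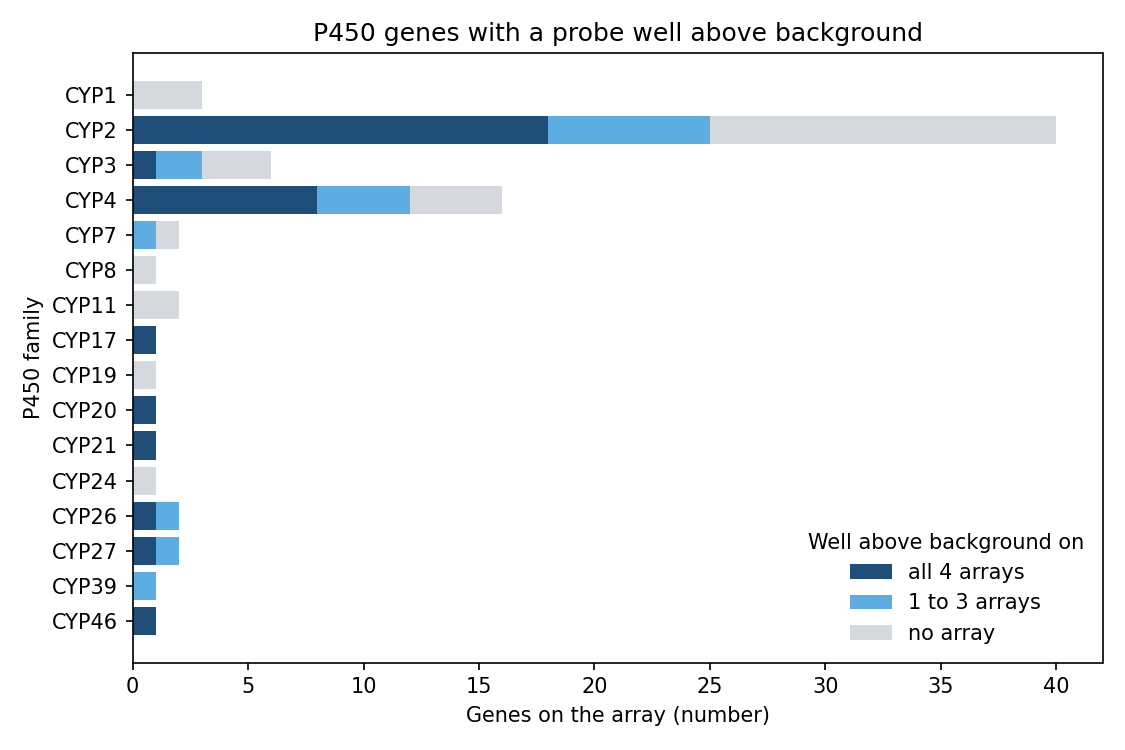
Number of P450 genes on the array in each family (horizontal axis), divided by whether a probe of the gene was well above background on all 4 arrays, on 1 to 3 arrays or on no array. Family 2 has 18 of 40 genes on all arrays and family 4 has 8 of 16, whereas the 3 genes of family 1 are on no array.

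Probes were compared when all arrays of IELs, or all arrays of SPLs, had them well above background, and this left 50 P450 probes of 42 genes, and 27937 probes of 18478 genes in all. Values below are levels, the log2 intensity minus the array's 75th percentile, and a gene with several tested probes is given by the probe with the highest mean level. With all 4 arrays, limma called 0.0% of all probes higher and 0.0% lower in IELs at an adjusted p under 0.05, and among P450 probes the calls were 0 and 0. At an unadjusted p under 0.05 there were 2 higher and 1 lower P450 probes, and 1295 higher and 308 lower among all probes. The adjusted p of the P450 probes lay between 0.634 and 0.972 with this limma fit. With 2 samples against 2, an exact permutation test cannot go below p = 0.333.

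In 12 of the 42 genes both IEL arrays lay above both SPL arrays, and in 6 both lay below, while the groups overlapped in the other 24. The share above was 28.6%, against a background of 24.6% of all genes tested, and the share below was 14.3%, against 24.6%. The median difference between IELs and SPLs was 0.11 on the log2 scale for the P450 genes and -0.0020 for all genes. Slide differences include spots that were not well above background in 1 group, where the size is not measured. On slide 1 they ran from -3.86 to 3.18, and 5 P450 genes were higher in IELs and 8 lower by 2-fold or more. There, 11.6% of all genes passed this fold upward and 14.2% downward. On slide 2 they ran from -1.10 to 1.19, with 2 genes higher and 1 lower past the fold of 2, beside 3.0% and 0.671% of all genes. The P450 genes thus varied more between the IEL and SPL arrays of slide 1 than between those of slide 2, as all genes did, with a median absolute difference of 0.74 against 0.22 for P450 genes and 0.51 against 0.17 for all genes.

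Without IEL replicate 2, limma called 4 P450 probes higher and 10 lower in IELs, of 4 and 8 genes. In the same fit 8.56% of all probes were higher and 11.0% lower. This fit sets a single IEL array against both SPL arrays and assumes that the lone sample varies like the others. Directions depended on the background correction. When normexp, which models background as a separate distribution, was fitted on all spots, all 12 genes higher in IELs turned lower. The median of all genes also moved, to -0.31, and the fitted background means were -158, -20.9, -680 and -296 units. Without 3, 3, 16 and 3 of the 45018 spots on IEL replicates 1 and 2 and SPL replicates 1 and 2, these means lay between -5.60 and -4.49 units. The fit on all spots was thus set by few spots. It lowered the median of the P450 genes further than that of all genes. The closing part gives the P450 median under this fit and the values that turned.

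**Figure D3:**
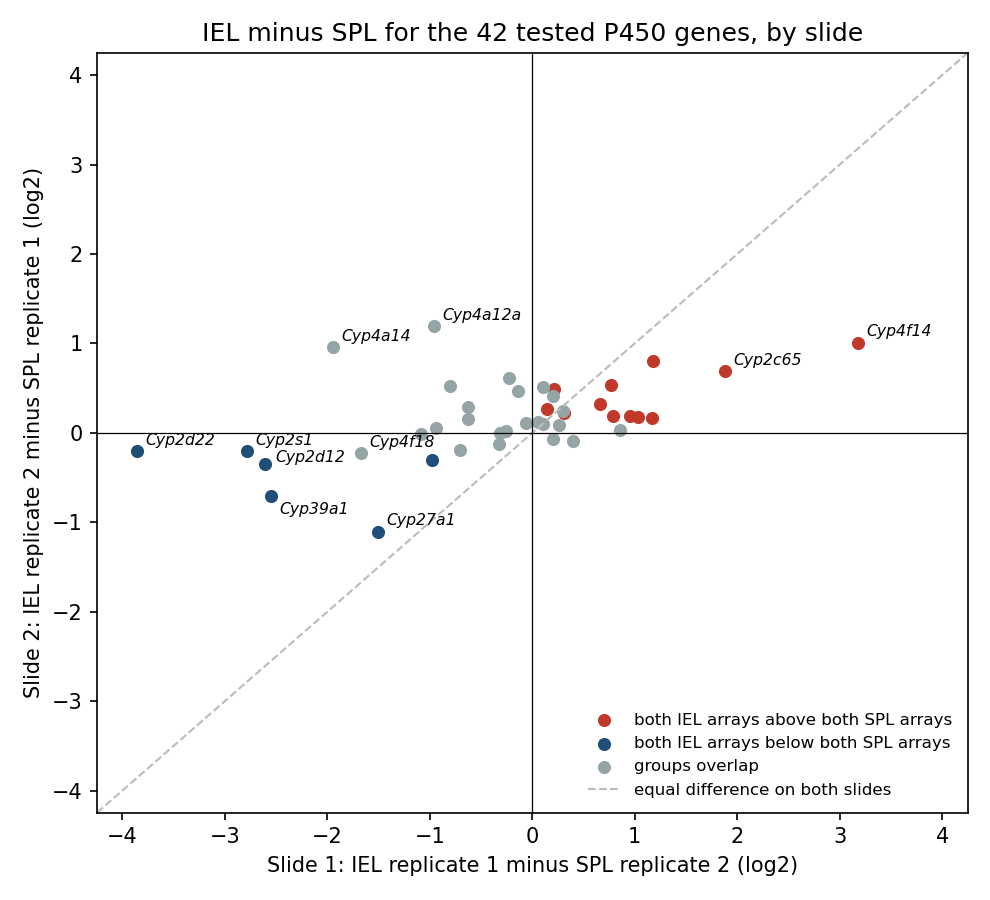
Difference between IELs and SPLs (log2) for the 42 tested P450 genes on slide 1 (horizontal axis) and slide 2 (vertical axis), with 1 point per gene, colored by whether the groups overlapped; the dashed line marks equal differences. Points spread from -3.86 to 3.18 along slide 1 and from -1.10 to 1.19 along slide 2. A difference has no measured size where 1 of its spots was not well above background. This holds for several genes, among them Cyp2d22 and Cyp4f14 at the ends of the slide 1 range, and Cyp27a1. Under normexp on all spots, a fit set by few spots that also lowered the median of all genes, the higher genes turn lower.

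Among the fatty acid hydroxylases of family 4, 3 of 11 tested genes had both IEL arrays above both SPL arrays and 0 the reverse, beside 24.6% of all genes each way, and all 3 turned lower under normexp on all spots. Cyp4f14, a leukotriene B4 hydroxylase of liver and intestine, had levels of -3.64 and -5.50 on IEL replicates 1 and 2 and of -6.51 and -6.81 on SPL replicates 1 and 2. Both SPL arrays were not well above background, so that the IEL mean was at least 3.12-fold higher. The limma adjusted p was 0.634 with all arrays and 0.0068 without IEL replicate 2. The order of the IEL arrays was that of the epithelial, enterocyte and dendritic cell (mainly Itgax) sums, among others. The part of these cells in it was not tested.

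Cyp4x1, a fatty acid monooxygenase known from brain, was well above background on all arrays, with levels of -3.41 and -4.19 in IELs and of -4.98 and -4.59 in SPLs. Both IEL arrays were higher, by 0.99 ± 0.37 (SE) on the log2 scale, with a limma adjusted p of 0.634 and of 0.036 without IEL replicate 2. Cyp4a10, a fatty acid omega-hydroxylase that peroxisome proliferators induce, had levels of -1.94 and -2.45 against -2.64 and -2.73. Its second probe overlapped between groups, with a log2 fold change of 0.08 against 0.49 for the first.

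Cyp4f18, the leukotriene B4 hydroxylase of mouse neutrophils, went the other way on a single array. Its levels were -2.20 and -0.30 in IELs and -0.07 and -0.53 in SPLs, so that IEL replicate 1 stood below the other 3 arrays, which overlapped. The log2 fold change was -0.95 ± 0.70 (SE). It was 0.0011 when IEL replicate 1 was left out and -1.90 when IEL replicate 2 was, the latter with a limma adjusted p of 0.020. Cyp4v3, a fatty acid hydroxylase of broad expression, had the same shape, with levels of -1.14 and -0.22 against -0.03 and -0.44. Neutrophil and macrophage sums were also lowest on IEL replicate 1, and their part in these values was not tested.

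The other family 4 genes had overlapping groups. Cyp4f13 and Cyp4f16, relatives of Cyp4f14 on chromosome 17, had log2 fold changes of -0.23 and 0.17, and Cyp4f39 and Cyp4b1 of 0.03 and -0.16. The value of Cyp4f39, which acts on very long fatty acids in skin, changed sign under quantile normalization (-0.07) and under scaling by the array median (-0.03). Cyp4a12a and Cyp4a14 were well above background on all arrays but IEL replicate 1, and the slides went opposite ways. IEL minus SPL was -0.96 on slide 1 and 1.19 on slide 2 for Cyp4a12a, and -1.95 and 0.96 for Cyp4a14.

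Among the xenobiotic-metabolizing genes of family 2, 11 genes form the Cyp2c subfamily on chromosome 19. Of these, 6 were well above background on all arrays, and 4 of the 6 had both IEL arrays above both SPL arrays and 0 the reverse, beside 24.6% of all genes each way. All 4 turned lower under normexp on all spots, and the difference from other genes was not tested. Cyp2c65, an intestinal epoxygenase and hydroxylase of arachidonic acid, had levels of -3.36 and -5.00 in IELs and of -5.69 and -5.24 in SPLs. The mean was -4.18 ± 1.16 (SD, n = 2) in IELs and -5.47 ± 0.32 (SD, n = 2) in SPLs, a log2 fold change of 1.29 ± 0.62 (SE). The limma adjusted p was 0.634, and 0.016 without IEL replicate 2.

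Cyp2c29, a liver epoxygenase that phenobarbital-type inducers raise, had levels of -4.39 and -5.40 against -5.57 and -5.42. IEL replicate 1 stood apart from the other arrays, which lay within 0.17 of each other, and the log2 fold change was 0.60 ± 0.41 (SE; limma adjusted p of 0.636, and of 0.041 without IEL replicate 2). Cyp2c66 was higher by 0.57, with a probe whose accession matches both Cyp2c65 and Cyp2c66, and Cyp2c70, which makes muricholic acids in mouse liver, was higher by 0.20. Cyp2c55, an intestinal and colonic member, gave levels of 1.00 and -0.44 in IELs and of -0.48 and 0.15 in SPLs, so that its groups overlapped and the value moved from 0.44 to -0.28 without IEL replicate 1. Cyp2c37 gave 0.07 and overlapped. Cyp2c40 was well above background on IEL replicate 1 alone, with an intensity of 25.3 units, against 3.48 on IEL replicate 2 and 3.99 and 4.22 on the SPL arrays. Its probe matches 4 genes of the subfamily (Cyp2c40, Cyp2c67, Cyp2c68 and Cyp2c69).

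**Figure D4:**
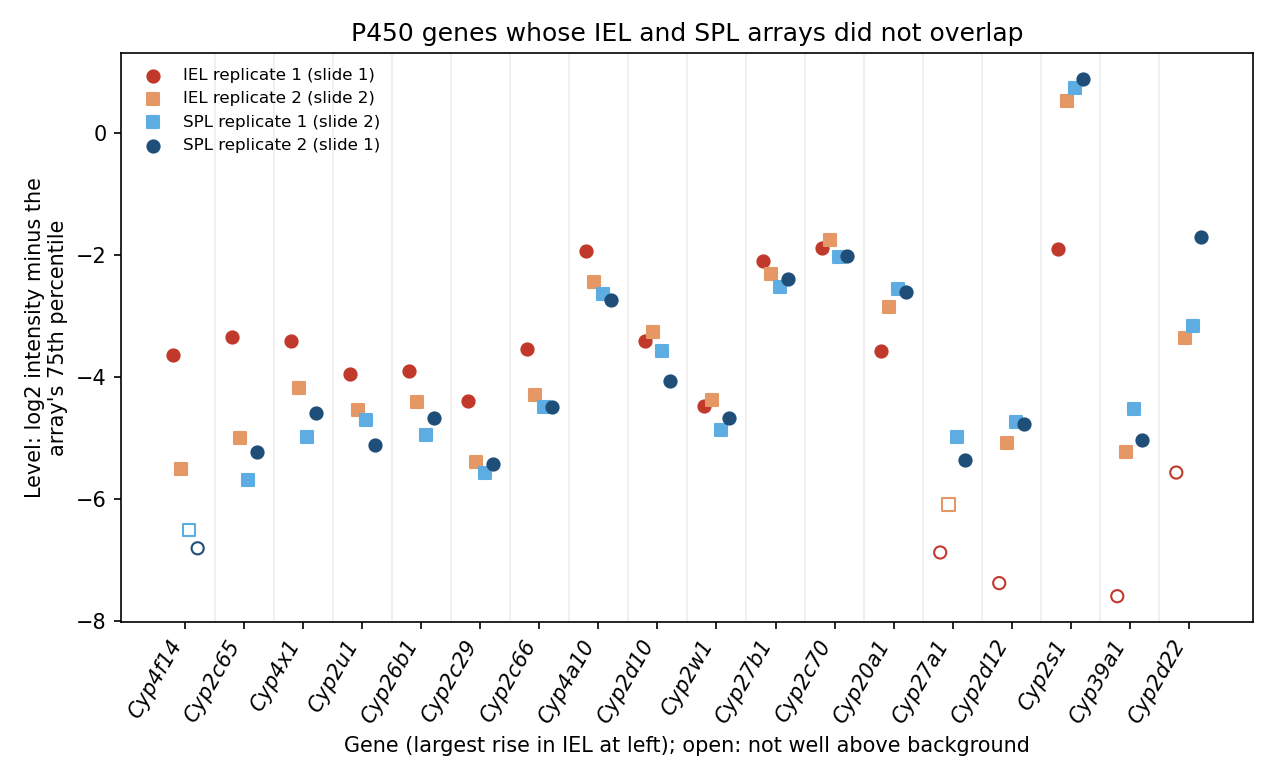
Levels (log2 intensity minus the array's 75th percentile) on the 4 arrays for the 18 P450 genes whose groups did not overlap, with open symbols where the spot was not well above background. IEL replicate 1 lies farthest from the SPL arrays in most of these genes, for example at -3.64 in Cyp4f14 and at -1.90 in Cyp2s1. Under normexp on all spots, a fit set by few spots that also lowered the median of all genes, the higher genes turn lower.

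In the Cyp2d subfamily on chromosome 15, relatives of the human debrisoquine hydroxylase, several probes were lower on IEL replicate 1. Cyp2d12 had levels of -7.38 and -5.08 in IELs and of -4.74 and -4.78 in SPLs, and it was not well above background on IEL replicate 1. Its log2 fold change was -1.48 ± 0.81 (SE; limma adjusted p of 0.634, and of 0.0072 without IEL replicate 2). The difference was -2.61 on slide 1 and -0.35 on slide 2.

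Cyp2d22 was read by 3 probes that disagreed. The 30 bases at the start of each are shown because they mark different stretches of the gene, which lie on the minus strand of mm9 (chr15:82205919-82205978, chr15:82201687-82201746 and chr15:82204377-82204436 for the whole probes, in the order below).
A_52_P478420: gttgctttccgattccagcatgcctgtaat
A_52_P49391: ttccctcaaattgataatgtttatacatag
A_51_P124126: tctgtgtctaccatgcaccactttggcctg
The first had levels of -5.57 and -3.37 in IELs and of -3.16 and -1.71 in SPLs, with a log2 fold change of -2.03 ± 0.92 (SE; limma adjusted p of 0.634, and of 0.033 without IEL replicate 2), the most negative value among tested P450 genes. The second gave -1.53, with 0.634 and 0.011 in the same fits, whereas the third, which was well above background on all 4 arrays, gave 0.26 with overlapping groups. On IEL replicate 1 neither the first nor the second probe was well above background, so that the size of these falls was not measured. The accession of the first probe matches no current gene, and those of the other two match Cyp2d22. For this gene the direction therefore depends on the probe.

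Probes of 2 further Cyp2d genes also disagreed. Cyp2d10 was higher in IELs by 0.49 with its brighter probe and gave -0.37 with overlapping groups in the other. Cyp2d9 gave 0.31 and -0.40, both with overlapping groups, by 2 probes that share a run of 27 bases and match several Cyp2d genes. Cyp2d26 gave -0.23 and overlapped. In the Cyp2b and Cyp2a subfamilies, which hold the phenobarbital-inducible enzymes and the coumarin hydroxylases, Cyp2b10, Cyp2b13, Cyp2b19 and Cyp2a4 were well above background on all arrays, with log2 fold changes between -0.14 and 0.15 and overlapping groups. The ethanol-inducible Cyp2e1, together with Cyp2f2 and Cyp2g1, of airway and olfactory tissue, was well above background on no array.

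Of the P450 genes, 4 were well above background on IEL replicate 1 alone, and 2 of them, Cyp3a13 and Cyp2j6, are on the list of intestinal P450 genes. Cyp3a13, the main family 3 enzyme of mouse small intestine, had intensities of 16.8 and 6.08 units in IELs and of 2.50 and 1.63 units in SPLs, and was well above background on IEL replicate 1 alone. Cyp2j6, an epoxygenase of arachidonic acid in intestine, had intensities of 13.9 and 2.99 units against 1.69 and 1.87. Cyp2j9 had 15.8 and 3.48 units against 5.62 and 1.97, so that IEL replicate 2 lay below SPL replicate 1. The intensities of Cyp2c40 are given above. Each of these 4 genes was measured in 1 of 2 IEL arrays, the array with the highest epithelial sum (23.7), and none entered the limma fit. With the other IEL array not measured, no bound on the fold between groups is given. Conversely, Cyp2b23 was well above background on IEL replicate 2 alone, with 11.1 units.

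**Figure D5:**
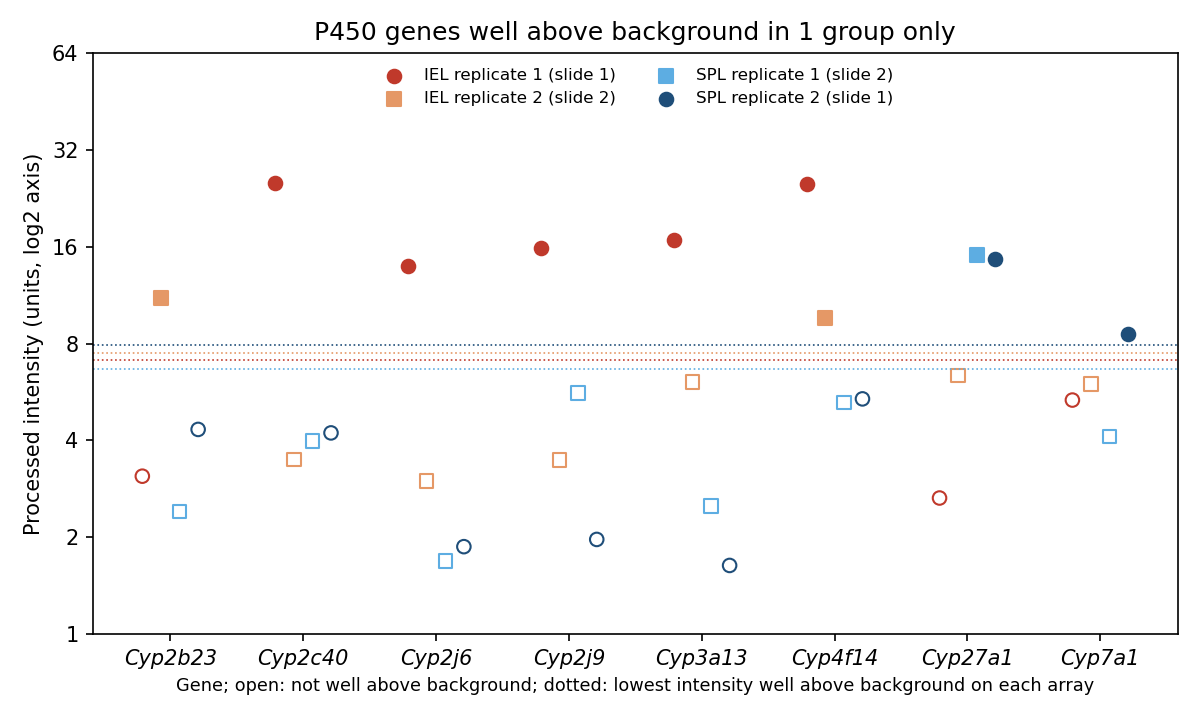
Processed intensity (units, logarithmic axis to base 2) of the P450 genes that were well above background in 1 group only, with open symbols where the spot was not well above background and dotted lines at the lowest intensity well above background on each array. IEL replicate 1 is the filled point at 13.9 to 25.3 units in Cyp2c40, Cyp2j6, Cyp2j9 and Cyp3a13, whereas Cyp27a1 is filled on both SPL arrays.

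The rest of family 3 did not follow Cyp3a13. Cyp3a11, the bile acid and drug hydroxylase that the pregnane X receptor induces, had levels of -5.74 and -4.82 against -5.11 and -5.11, and it was not well above background on IEL replicate 1. Cyp3a41a overlapped, with a log2 fold change of 0.17. The accession of the Cyp3a11 probe also matches Cyp3a41a, Cyp3a41b and Cyp3a44, and Cyp3a25 was well above background on no array. Of the 14 genes of the intestinal P450 list, 10 were tested, of which 4 had both IEL arrays higher (Cyp2c29, Cyp2c65, Cyp2c66 and Cyp4f14) and 1 lower (Cyp27a1), beside 24.6% of all genes each way, with a median log2 fold change of 0.30.

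Of 6 genes of bile acid and oxysterol metabolism, 3 were tested, and 2 of these, Cyp27a1 and Cyp39a1, had both IEL arrays below both SPL arrays, as 24.6% of all genes did. Both turned positive (0.21 and 0.16) when normexp was fitted without spots far under their local background. That fit adds an offset of 50 units. Intensities were 2.65 to 15.1 units for Cyp27a1 and 1.61 to 20.7 units for the brighter Cyp39a1 probe. At such intensities the fitted value follows mainly the offset and the array's 75th percentile. The sign change therefore decides nothing for these genes. Cyp27a1, the mitochondrial sterol 27-hydroxylase, had levels of -6.88 and -6.09 in IELs and of -4.99 and -5.37 in SPLs. Both IEL arrays were not well above background, and the SPL mean was at least 1.40-fold higher. The limma adjusted p was 0.634, and 0.022 without IEL replicate 2. Macrophages are known to express Cyp27a1, and the macrophage sum was lowest on IEL replicate 1 but stood at 10.5 on IEL replicate 2 against 13.5 and 5.38 on the SPL arrays. The part of these cells in the difference was not tested.

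Cyp39a1, the 24-hydroxycholesterol 7α-hydroxylase, was read by 2 probes that moved alike. The brighter had levels of -7.60 and -5.24 in IELs and of -4.54 and -5.04 in SPLs, and IEL replicate 1 was not well above background by either probe. The log2 fold changes were -1.63 ± 0.85 and -1.53 ± 0.74 (SE), with a limma adjusted p of 0.634 for both, and of 0.010 and 0.0086 without IEL replicate 2. Cyp46a1, the cholesterol 24-hydroxylase that produces the substrate of Cyp39a1, had levels of -2.27 and -1.17 against -1.16 and -1.19. Here the 3 arrays other than IEL replicate 1 lay within 0.03 of each other, so that the limma adjusted p of 0.039 without IEL replicate 2 rests on IEL replicate 1. Cyp7a1, the rate-limiting enzyme of bile acid synthesis, was well above background on SPL replicate 2 alone, with 8.55 units, and Cyp7b1 and Cyp8b1 on no array.

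In vitamin D metabolism, Cyp27b1, which makes the active hormone, had levels of -2.10 and -2.31 in IELs and of -2.53 and -2.40 in SPLs. The difference was 0.26 ± 0.24 (SE) with its brighter probe, and the other probe overlapped. The vitamin D 25-hydroxylase Cyp2r1 had levels of -4.72 and -3.34 against -3.39 and -3.78, and its value changed from -0.44 to 0.24 without IEL replicate 1. Cyp24a1, a target of the vitamin D receptor, did not reach that mark on any of the 4, whereas the receptor gene Vdr had levels of -3.08 and -5.61 in IELs and of -6.14 and -6.31 in SPLs, where neither array was well above background (limma adjusted p of 0.634, and of 0.0056 without IEL replicate 2).

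The retinoic acid hydroxylases differed from each other. Cyp26b1, which clears retinoic acid and is known to be made by T cells, had levels of -3.91 and -4.42 in IELs and of -4.96 and -4.68 in SPLs. Both IEL arrays were higher, by 0.66 ± 0.30 (SE), with a limma adjusted p of 0.634 and of 0.076 without IEL replicate 2. Cyp26a1 had levels of -5.49 and -4.80 against -5.41 and -5.27 and overlapped.

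Steroid hormone genes were detected in both groups for 2 of 5 members. Cyp17a1, the 17α-hydroxylase of adrenal and gonad, was well above background on all arrays, with levels of 2.10 and 3.14 in IELs and of 2.89 and 1.80 in SPLs. Cyp21a1, the adrenal 21-hydroxylase, had levels of -3.80 and -2.54 against -3.06 and -3.91. In both genes the arrays of slide 2 lay above those of slide 1, in each group, and the groups overlapped. The differences within slides were 0.30 and 0.24 for Cyp17a1 and 0.11 and 0.52 for Cyp21a1. Cyp17a1 and Cyp21a1 were each read by 1 probe.

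Genes with other or unsettled substrates moved both ways. Cyp2s1, an extrahepatic enzyme that acts on eicosanoids and is induced through the aryl hydrocarbon receptor, had levels of -1.90 and 0.53 in IELs and of 0.73 and 0.88 in SPLs. IEL replicate 1 stood far below the rest, with a difference of -2.79 on slide 1 and of -0.20 on slide 2. The log2 fold change was -1.49 ± 0.85 (SE; limma adjusted p of 0.634, and of 0.0072 without IEL replicate 2). The probe that was measured is shown beside the gene's other probe, which was well above background on no array and whose GC content was 18.3% against 41.7%, both on the minus strand of mm9 (chr7:26587504-26587563 and chr7:26589169-26589228 for the whole probes), by their 30 bases at the start.
A_51_P180091: cagaagccatagctgacctctttgtgactt
A_52_P456837: tgacatacgtgtacataattcaaaatacta
Cyp20a1, an enzyme with no settled substrate, had levels of -3.58 and -2.86 against -2.56 and -2.60. Its log2 fold change was -0.64 with all 4 arrays, where it was not called. The difference was -0.98 on slide 1 and -0.30 on slide 2. Without IEL replicate 2 the fall was larger and was called, close to the threshold. Cyp2u1, a fatty acid hydroxylase of brain and thymus, and Cyp2w1, an enzyme known from fetal gut and colon tumors, were higher on both IEL arrays, by 0.66 ± 0.33 and 0.35 ± 0.23 (SE).

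Across the 50 tested P450 probes the arrays related to each other as they did over all probes. Levels of IEL replicate 2 correlated with those of SPL replicates 1 and 2 at 0.979 and 0.959, and IEL replicate 1 correlated with IEL replicate 2 at 0.862 and with SPL replicates 1 and 2 at 0.808 and 0.787. These are correlations across probes, which share their sequence between arrays. The median difference between IEL replicates 1 and 2 was -0.41 for the 42 P450 genes and -0.02 for all genes, and that between SPL replicates 1 and 2 was 0.00 and -0.02.

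Partner genes were taken from lists and none was called with all 4 arrays. The 6 electron donor genes were well above background on all arrays and summed to 32.3, 32.04, 32.6 and 32.1 times the 75th percentile on IEL replicates 1 and 2 and SPL replicates 1 and 2. Por, the reductase of microsomal P450 enzymes, had levels of 3.46 and 2.68 against 2.76 and 2.81 and overlapped. The 8 heme synthesis genes were also well above background on all arrays, with 1 higher on both IEL arrays (Alad) and 2 lower (Alas1, the rate-limiting enzyme, and Uros).

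Of the regulators of P450 genes, 17 were measured. Of 14 tested, 7 were higher on both IEL arrays and 1 lower, beside 24.6% of all genes each way. Without IEL replicate 2, 6 were called higher and 2 lower, beside 8.56% and 11.0% of all probes. Ahr, the aryl hydrocarbon receptor, had levels of 2.90 and 0.74 in IELs and of -0.53 and -0.91 in SPLs, a log2 fold change of 2.54 (limma adjusted p of 0.634, and of 0.0054 without IEL replicate 2). Its repressor gene Ahrr had 1.31 and 0.08 against -1.45 and -7.27, with a limma adjusted p of 0.634 with all arrays. Ahrr, unlike Ahr, was not called without IEL replicate 2 either. In both genes the order of the arrays was that of the epithelial, goblet, enteroendocrine and dendritic cell (mainly Itgax) sums. The part of these cells was not tested. SPL replicate 2 was not well above background for Ahrr. The family 1 genes, the receptor's classic targets, gave no spot with that mark on any of the arrays. Hnf4a, a nuclear receptor of liver and gut epithelium, had levels of -3.03 and -3.33 against -4.42 and -3.48.

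Conjugating enzymes act on P450 products. Of 21 tested, 9 were higher on both IEL arrays and 1 lower (the epoxide hydrolase gene Ephx1), beside 24.6% of all genes each way. Without IEL replicate 2, 6 were called higher and 0 lower, beside 8.56% and 11.0% of all probes. The sulfotransferase gene Sult2b1 had levels of 2.67 and 0.15 in IELs and of -1.36 and -2.66 in SPLs. Of 5 efflux transporter genes tested, 2 were higher on both IEL arrays and 2 lower, beside 24.6% of all genes each way. Abcb1a, which exports drugs from enterocytes and T cells, had 1.52 and -0.58 against -1.89 and -3.27. Abcb1b had 4.34 and 1.69 against 1.11 and 0.63. The lower genes were Abcc4 and Abcg2, with log2 fold changes of -0.40 and -0.98. Without IEL replicate 2 the log2 fold change was 4.68 for Sult2b1, 4.10 for Abcb1a and 3.47 for Abcb1b. It was -0.56 for Abcc4 and -1.58 for Abcg2. In Sult2b1, Abcb1a and Abcb1b the order of the arrays was that of the epithelial, goblet, enteroendocrine and dendritic cell (mainly Itgax) sums. The part of these cells was not tested.

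Promoter sequences were available for 58 of the 81 genes by symbol, in 67 windows of 250 bases upstream of a RefSeq start on GRCm38.p6. They were searched on both strands for 5 short motifs, chosen after the values above were known. TATAAA, the letters of a TATA box counted at any position of the window, was in 37.3% of P450 windows and 12.4% of all 32851 windows. CAAAGTCCA (bound by HNF4) was in 10.4% against 0.384%. GCGTG (the core to which the aryl hydrocarbon receptor binds) was in 20.9% against 28.2%, TTTATTG (CDX2) in 1.49% against 4.20%, and CCGGAAG (ETS) in 1.49% against 6.91%. The median number of CpG dinucleotides per window was 2 for P450 genes and 6 for all windows. Many of these genes lie in clusters of recent copies, so that their windows share ancestry.

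The 7 matches to CAAAGTCCA are shown with 11 bases on each side, because 6 of them fall in the Cyp2c and Cyp3a subfamilies, whose members differed in detection. Capitals mark the motif, the reading is that of the gene, and no other motif of the 5 overlapped it. The windows are chr19:39812840-39812870, chr19:39060879-39060909, chr19:40187331-40187361, chr5:145879944-145879974, chr5:145469803-145469833, chr5:145720212-145720242 and chr9:121916353-121916383 in GRCm38.p6, on the minus strand except the second.
Cyp2c40: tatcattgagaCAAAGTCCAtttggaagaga
Cyp2c65: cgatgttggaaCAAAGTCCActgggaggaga
Cyp2c70: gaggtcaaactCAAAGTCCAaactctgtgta
Cyp3a11: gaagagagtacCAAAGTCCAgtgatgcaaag
Cyp3a16: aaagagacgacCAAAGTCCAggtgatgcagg
Cyp3a41a: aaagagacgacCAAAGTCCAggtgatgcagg
Cyp8b1: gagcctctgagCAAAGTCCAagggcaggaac
Of the 7 genes, Cyp2c65 and Cyp2c70 were higher on both IEL arrays, Cyp2c40 was well above background on IEL replicate 1 alone, Cyp3a11 and Cyp3a41a overlapped, and Cyp3a16 and Cyp8b1 were well above background on no array. The motif was in 3 of 27 windows of genes well above background on all arrays and in 2 of 26 windows of genes on none.

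The windows of Cyp2c65 and Cyp2s1 are shown whole as examples of a gene that was higher on both IEL arrays and of a gene that was lower, each with a single start in the table. In Cyp2c65 (chr19:39060756-39061005, plus strand, GRCm38.p6) capitals mark the TATA and HNF4 matches, and in Cyp2s1 (chr7:25816526-25816775, minus strand) none of the 5 motifs was found.
Cyp2c65: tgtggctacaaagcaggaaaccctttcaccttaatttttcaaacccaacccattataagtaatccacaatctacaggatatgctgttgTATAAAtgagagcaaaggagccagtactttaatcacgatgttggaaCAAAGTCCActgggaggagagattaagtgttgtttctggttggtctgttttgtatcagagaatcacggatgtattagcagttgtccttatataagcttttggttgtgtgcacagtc
Cyp2s1: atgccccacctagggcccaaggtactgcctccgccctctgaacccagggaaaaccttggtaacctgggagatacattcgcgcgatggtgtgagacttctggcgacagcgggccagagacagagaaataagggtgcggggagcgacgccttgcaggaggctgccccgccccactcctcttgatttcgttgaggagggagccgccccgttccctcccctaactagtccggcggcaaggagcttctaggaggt
The Cyp2c65 window held 2 CpG dinucleotides with a GC content of 39.6%, and the Cyp2s1 window held 15 with 62.0%. A match of letters is a description of the window and not a bound site.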

How the data were processed

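The authors scanned 4 Agilent 1-color arrays, 1 per sample, and deposited processed intensity values from which Feature Extraction had subtracted the background within each array (version 10.7.3.1 per the file headers, 10.7.1.1 per the submitters' processing notes). No normalization between arrays had been applied to them. A table of log2 values, which the authors deposited as well, served as an alternative. PrimeView chips, which are not these arrays, and an unpaired Student test are named in the study's methods.

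Here, the log2 of the processed intensity minus each array's 75th percentile over spots that are not controls (312, 435, 479 and 605 units for IEL replicates 1 and 2 and SPL replicates 1 and 2) was used as the level. Spots with an outlier mark were left out (125, 106, 98 and 179), repeat spots of a probe were averaged, and 0 spots were saturated. The lowest intensity well above background was between 6.66 and 7.92 units and sets the detection limit, while precision is limited by how few arrays there are. Where a group was not well above background on any of its arrays and the other group was on all of its arrays, a bound is given. It sets the other group's mean against the higher of that lowest level and the probe's own level. The test between groups was that of limma 3.58.1 under R 4.3.3 (two-sided, no block, 2 residual degrees of freedom, Benjamini-Hochberg over all tested probes, threshold 0.05), and pandas 2.3.3 and matplotlib 3.10.9 in Python 3.11.15 were used for counts and plots. The limma step was also run on simulated data with independent noise. Those data held no array lying near the other group, so they cannot show how the fit treats IEL replicate 2. Replicate numbers were not taken as pairs. The correlation of deviations between same-numbered samples was -0.025, which with 2 arrays per group cannot exclude a pairing.

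Named genes are the P450 genes well above background on all arrays, the 10 largest rises and 10 largest falls among genes whose groups did not overlap, and the list of intestinal P450 genes; genes named at the detection limit, and partner and marker genes, were chosen after their values were seen. The members and lists were chosen with earlier results of these data known. Symbols are those of the array's annotation, with mm9 positions. By accession, 84 of the 115 probes matched 1 current RefSeq gene, 22 several and 9 none. Marker lists not described in the report gave sums, in the same order of arrays, of 36.3, 4.17, 1.54 and 0.282 (goblet), 38.4, 4.31, 5.14 and 5.24 (Paneth), 5.17, 0.919, 0.381 and 0.132 (enteroendocrine), 4.04, 25.2, 31.4 and 24.9 (B cell), 1.18, 75.0, 99.1 and 116 (erythroid) and 0.325, 0.404, 0.237 and 0.162 (stroma). Some items are not reported here.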

Additional observations from a re-analysis of the deposited data

How the results depend on the processing

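With 2 arrays per group, and with IEL replicate 2 lying close to the spleen arrays, leaving that array out changed more calls than any other setting tried. P450 probes called ranged from 0 to 4 higher and from 0 to 10 lower when each array was left out in turn, and all probes from 0 to 2390 and from 0 to 3066; only the fit without IEL replicate 2 made calls. The P450 median log2 fold change ranged from -0.12 (without IEL replicate 2) to 0.22. The replicate block and the slide as a block left the counts of calls at 0 and the P450 median at 0.11, with no pairing of replicate numbers stated in the labels. The methods' t-test gave 470 higher and 349 lower among all probes before adjustment and 0 and 0 after it, with 0 and 0 P450 probes either way.

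Normexp with an offset of 50, fitted on all spots, gave a P450 median of -0.83 and 0 genes higher on both IEL arrays. Its fitted background means were -158, -20.9, -680 and -296 units. With spots left out that lay over 20 units under the local background, these means were -4.49, -5.02, -5.60 and -4.59 units, the P450 median was 0.30 (all genes 0.14), 27 genes were higher and 3 lower on both IEL arrays. In this second fit, values of probes dimmer than the offset follow mainly the offset and each array's 75th percentile. Without a filter on dim probes the median was 0.31 over 81 genes and 32 were higher, and with only probes well above background on all arrays 2 were lower. Of the 115 probes, 79 and 77 on IEL replicates 1 and 2 and 83 and 80 on SPL replicates 1 and 2 were positive and significant against the local background, and 59, 72, 79 and 60 exceeded the 99th percentile of the array's negative control spots, which lay at 3.97, 2.53, 1.90 and 4.90 units.

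Of 603 values of 38 named genes under alternatives, 537 kept direction and side of the threshold, 12 passed the threshold (all without IEL replicate 2) and 54 changed sign, in 34 genes. Under normexp on all spots the log2 fold change turned to -0.64 for Cyp21a1, -0.91 for Cyp26b1, -0.54 for Cyp27b1, -0.99 for Cyp2b10, -0.88 for Cyp2b13, -0.73 for Cyp2b19, -0.97 for Cyp2c29, -0.61 for Cyp2c37, -0.88 for Cyp2c65, -0.86 for Cyp2c66, -0.41 for Cyp2c70, -0.71 for Cyp2d10, -0.024 for Cyp2d9, -0.89 for Cyp2u1, -0.92 for Cyp2w1, -0.65 for Cyp3a41a, -0.52 for Cyp4a10, -0.97 for Cyp4f14, -0.52 for Cyp4f16, -0.96 for Cyp4f39 and -0.84 for Cyp4x1. Under the second normexp fit it turned to 0.21 for Cyp27a1, 0.27 for Cyp2a4, 0.22 for Cyp2d12, 0.18 for Cyp2r1, 0.16 for Cyp39a1, 0.39 for Cyp3a11 and 0.33 for Cyp4b1. These probes had intensities near or under the offset, so that their signs in that fit decide no direction. Cyp4f39 gave -0.068 under quantile normalization, -0.031 under scaling by the array median and -0.075 in the authors' values, Cyp2d9 gave -0.046 as the mean of its probes, and Cyp2d22 gave 0.26 where only its probe well above background on all arrays was kept.

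When each array was left out in turn, values with a change of sign ranged from -0.27 to 0.82 for Cyp17a1, -0.32 to 0.94 for Cyp21a1, -0.54 to 0.26 for Cyp2a4, -0.10 to 0.40 for Cyp2b10, -0.021 to 0.22 for Cyp2b13, -0.022 to 0.15 for Cyp2c37, -0.28 to 1.17 for Cyp2c55, -0.038 to 0.65 for Cyp2d9, -1.13 to 0.24 for Cyp2r1, -0.63 to 0.29 for Cyp3a11, -0.14 to 0.47 for Cyp3a41a, -1.10 to 0.0053 for Cyp46a1, -0.37 to 0.064 for Cyp4b1, -1.90 to 0.0011 for Cyp4f18, -0.10 to 0.15 for Cyp4f39 and -0.91 to 0.015 for Cyp4v3. Cyp20a1, Cyp2d26, Cyp2s1 and Cyp4f13 kept their sign under every alternative run. The cause of these changes was not tested.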
